A study of Mus musculus with 24 samples.

Results

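Loss of Prdm16 was examined in radial glia of the embryonic mouse cortex, as 4 KO libraries against 4 WT libraries of sorted PAX6+ cells, which are 8 of the 24 RNA-seq libraries of the series. The 8 libraries were taken by their titles, which give genotype, sorted population and replicate. KO embryos had the genotype Emx1Ires-Cre; Prdm16flox/flox, WT embryos had Prdm16 flox/flox without Cre, and all were at E15.5, a stage of cortical neurogenesis. The other 16 libraries came from TBR2+ intermediate progenitors and from cells sorted as negative for both proteins (PAX6-TBR2-), which the labels name cortical neurons, with 4 libraries for each genotype in each population. The Emx1-Cre allele drives recombination in dorsal telencephalic progenitors and so also in the cells born from them. It was present in KO libraries alone and alters the Emx1 locus, so effects of Cre, of the Emx1 allele and of Prdm16 loss cannot be told apart. The labels call the replicates biological but do not say which embryos, how many or which litters went into a library, so the p-values measure the spread between these libraries.

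Radial glia line the ventricle, span the cortical wall with a process attached to the basement membrane at the pial surface, and divide to give intermediate progenitors, neurons and later glia. PRDM16 is a zinc finger protein with a PR domain that binds DNA and regulates transcription together with cofactors, and it is made in cortical radial glia but much less in the cells derived from them. Its closest relative in the family is MECOM, also known as PRDM3 or EVI1.

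KO libraries held 7620760 to 11271942 counts and WT libraries 7752824 to 12554161, with 11.3% to 23.98% mitochondrial counts in KO and 14.4% to 20.2% in WT. The 12 radial glia markers were all detected, and their summed level was 5449 to 6334 CPM in KO libraries, against 4847 to 5460 CPM in WT libraries; CPM (counts scaled to a common library size) were normalised by TMM within these 8 libraries. Summed Cajal-Retzius markers were 28.4 to 139 CPM in KO libraries, against 52.9, 62.6, 424.5 and 77.9 CPM in WT libraries 1 to 4, so WT replicate 3 stood apart. Endothelial and mural markers summed to 83.6 to 129.1 CPM in KO and to 129.5 to 165 CPM in WT, just without overlap, and 13 of the 16 genes had the lower mean in KO. Summed microglia markers stayed at 2.02 to 7.21 CPM and choroid plexus markers at 0.173 to 1.97 CPM over the 8 libraries. Xist, the RNA of the inactive X chromosome, was at 1905, 4393, 5049 and 24.7 CPM in KO replicates 1 to 4, against 2785, 1580, 2683 and 2305 CPM in WT replicates 1 to 4. Summed levels of 4 Y-linked genes were 84.0 to 409 CPM in KO and 139 to 267 CPM in WT, so 7 of the 8 libraries held transcripts of both kinds, and KO replicate 4 did not. In bulk samples such as these, fewer cells of a type and less RNA per cell cannot be told apart.

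The targeted gene had a lower mean in KO libraries but was not called by edgeR without the block. Prdm16 (chromosome 4, 154316125 to 154636873 in GRCm38, minus strand) had 280, 230, 230 and 202 CPM in KO libraries, against 336, 308, 357 and 263 CPM in WT libraries. The highest KO library lay above the lowest WT library. Its log2 fold change was -0.43 (SE 0.12), with an adjusted p of 0.05798 by edgeR's quasi-likelihood test with Benjamini-Hochberg adjustment over all genes tested, which is used throughout, and of 0.000495 with the replicate number as a block. Prdm16 was also called with DESeq2 (adjusted p = 0.01969), limma-voom (0.04962) and edgeR without a filter (0.005647), and not with all 24 libraries in 1 fit (0.3696). Without KO replicate 1 the value was -0.52 (adjusted p = 0.01918 by edgeR) and without WT replicate 4 it was -0.51 (adjusted p = 0.02348), while the 6 other fits that leave out 1 library gave adjusted p of 0.1042 to 0.2321. Which exons are floxed is not given, so counts over the whole gene check the genotype labels in part. Transcripts annotated within Prdm16 on the opposite strand were higher. Gm13134 had 48.5, 37.4, 57.3 and 36.9 CPM in KO libraries, against 26.4, 24, 24.6 and 20.8 CPM in WT libraries (log2 fold change 0.91, SE 0.15). The strand setting of the counting is not given in the sources used here, so reads from opposite strands may be mixed. Emx1, whose locus carries Cre, had 24.4, 23.9, 23.3 and 14.4 CPM in KO libraries, against 26.3, 29.2, 24.1 and 30.6 CPM in WT libraries, and was not called (-0.36, adjusted p = 0.409). Within 5 Mb of Emx1, 2 of 93 tested genes were called (2.15%), and within 5 Mb of Prdm16 4 of 103 (3.88%). The 2 near Emx1 were Cyp26b1 and Tacr1, both higher in KO.

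Of 39017 genes counted, 14212 had enough reads to test, and 517 of these (3.64%) were called at an adjusted p under 0.05. More genes rose than fell in KO radial glia, 348 (2.45%) against 169 (1.19%). The replicate numbers pair the libraries by the check given with the methods. With the replicate number as a block 1045 genes (7.35%) were called, 609 higher (4.29%) and 436 lower (3.07%), among them all 517. Each call of KO against WT in PAX6+ cells given below as lost in another fit was thus kept with the block. Changes were mostly moderate: the median fold was 1.87 among genes that rose and 1.90 among those that fell, and 143 and 77 genes changed more than 2-fold. KO and WT libraries did not overlap in 1234 of the tested genes (8.68%). The number of genes that fell was 95 without WT replicate 1, 97 without WT replicate 3 and 99 without KO replicate 2.

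**Figure D1:**
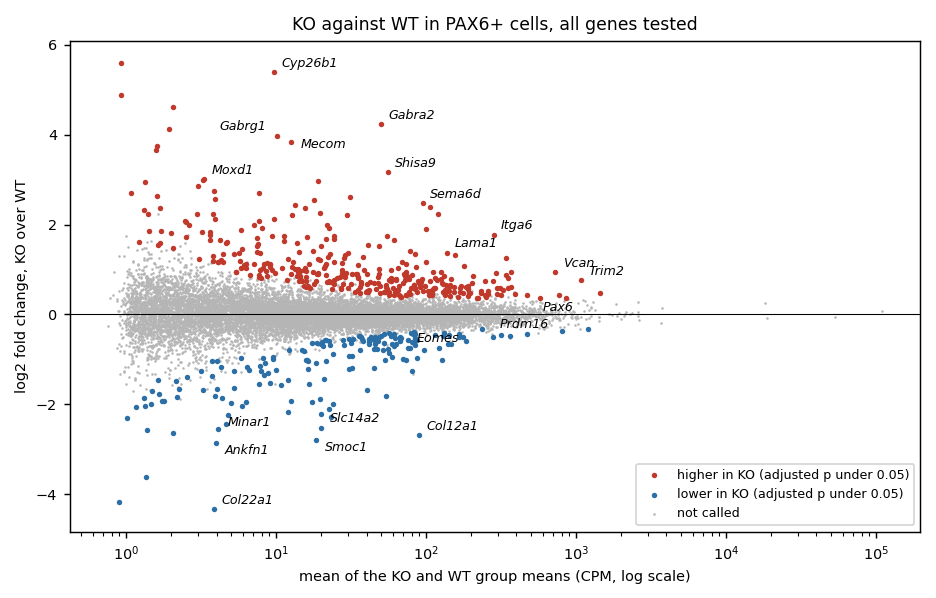
Each point is 1 of the tested genes in PAX6+ cells, with the mean of the KO and WT group means in CPM on a log axis and the log2 fold change of KO over WT. Red points are the 348 genes that rose and blue points the 169 that fell; Cyp26b1 and Gabra2 lie highest among the labelled genes and Col22a1 lowest, while Pax6 lies at -0.03.

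In the ranking by fold, the gene that rose most was nearly silent in WT radial glia and clear in every KO library. The rule for naming genes by fold took called genes with no overlap between the groups and a mean of at least 5 CPM in the higher group, so the lack of overlap among them is no further evidence. Cyp26b1 encodes an enzyme that degrades retinoic acid. The gene lies on chromosome 6 at 84571414 to 84593908, near Emx1 (85187438 to 85204462), whose locus carries Cre in KO alone. An effect of that allele on Cyp26b1 cannot be told apart from Prdm16 loss. Cyp26b1 had 22.5, 13.9, 19.4 and 20.1 CPM in KO libraries, against 0.548, 0.780, 0.155 and 0.256 CPM in WT libraries. Every KO library was thus more than 10 CPM above every WT library, and the log2 fold change of 5.40 (SE 0.33, adjusted p = 5.303e-08 by edgeR) was the largest in this ranking. Other genes of retinoic acid metabolism and response were called in the same direction. Of 11 tested genes of the retinoic acid list 4 rose (36.4%, against 2.45% of all tested genes) and none fell, among them Cyp26b1, Rxrg, which encodes a retinoid X receptor, and Dhrs3, which encodes a reductase that turns retinaldehyde back into retinol. Rxrg had 1.27 to 3.34 CPM in KO libraries and 0.155 to 0.439 CPM in WT libraries (log2 fold change 2.94, SE 0.52). Dhrs3 overlapped between the groups, with 7.89 to 27.1 CPM in KO and 1.15 to 8.24 CPM in WT; DESeq2 and limma-voom did not call it, and the call was lost without KO replicate 1 or 3 or WT replicate 1, 2 or 4 (adjusted p up to 0.1663). The median of the list was 0.05, against 0.00197 over all genes tested. This list and the gene lists below were chosen with earlier results of these data known. The shares called in them are thus descriptions and no independent support. The receptor genes Rara (-0.07) and Rarg (0.02) and the gene of the retinol dehydrogenase Rdh10 (0.24) were not called, and neither was Crabp2, which encodes a retinoic acid carrier (-1.29, adjusted p = 0.08507 by edgeR).

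Among PRDM family genes, 1 of 11 tested was called (9.09%, against 3.64% of all tested genes), and it was the one closest to the deleted gene. Mecom had 23.9, 21.04, 26.6 and 22.9 CPM in KO libraries, against 2.08, 1.65, 1.17 and 1.79 CPM in WT libraries. The KO libraries agreed closely, and the fold was 14.3 (log2 fold change 3.84, SE 0.21). The exons of Mecom overlap those of Mecomos on the other strand, which was called too, with 1.39 to 2.11 CPM in KO libraries and 0 to 0.128 CPM in WT libraries; its estimate of 5.60, above that of Cyp26b1, rests on almost no WT counts. Prdm12 (1.42, adjusted p = 0.1766 by edgeR) and Prdm8 (1.51, adjusted p = 0.2627) had high estimates from low counts, and the 8 other tested members lay between -0.43 and 0.17. With the replicate block 2 members were called, Mecom higher and Prdm16 lower.

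**Figure D2:**
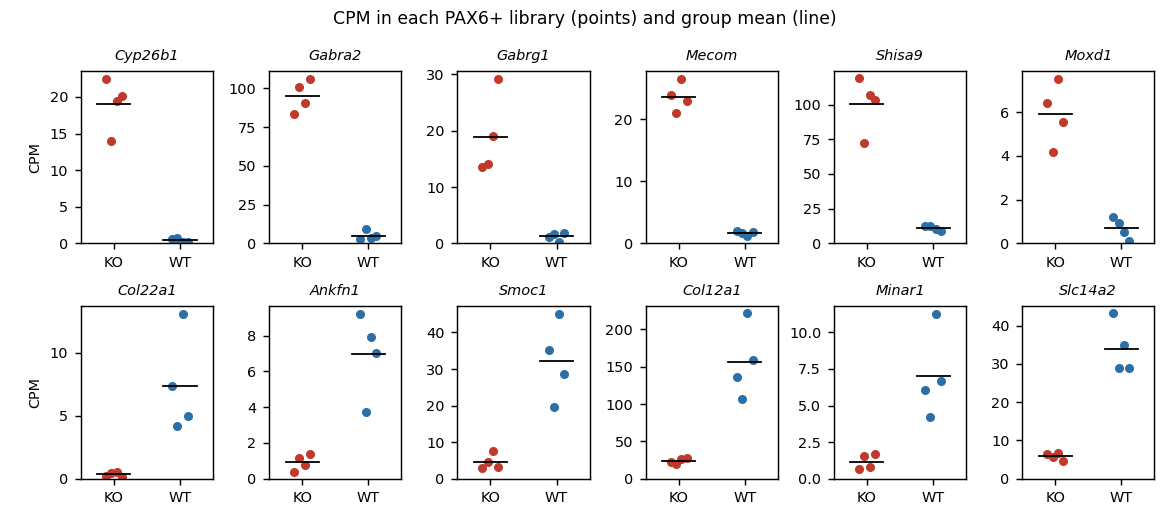
Each panel plots the CPM of a gene in the 4 KO and the 4 WT PAX6+ libraries, with a line at the group mean, for the 6 genes with the largest rise (top) and the 6 with the largest fall (bottom) among genes chosen by fold. KO and WT points are apart in every panel because the rule required it; Cyp26b1 in WT and Col22a1 in KO lie below 1 CPM.

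GABA-A receptors are chloride channels opened by GABA and built of several kinds of subunit, and in cortical progenitors GABA is known to depolarise the cell. Genes of 3 subunits that lie together on chromosome 5 rose in KO radial glia. Gabra2, encoding an alpha subunit, had 83.6, 101, 90.8 and 106 CPM in KO libraries, against 2.74, 9.01, 3.26 and 5.11 CPM in WT libraries. Its log2 fold change was 4.23 (SE 0.25, adjusted p = 4.826e-08 by edgeR). Gabrg1, encoding a gamma subunit, had 13.5, 14.0, 19.1 and 29.2 CPM in KO libraries, against 1.21, 1.65, 0.311 and 1.79 CPM in WT libraries (log2 fold change 3.98, SE 0.37). These genes are neighbours on the minus strand, with 115 kb between them, and they were the only adjacent pair in the ranking by fold. Further along the cluster, Gabrb1, encoding a beta subunit, had 44.6, 32.6, 47.1 and 40.9 CPM in KO libraries, against 16.3, 15.3, 15.6 and 18.9 CPM in WT libraries (1.32, SE 0.15). Gabra4, between Gabra2 and Gabrb1, was not called: it had 23.0, 36.2, 43.1 and 63.8 CPM in KO libraries, against 19.7, 28.2, 21.7 and 34.1 CPM in WT libraries (0.69, adjusted p = 0.1897 by edgeR). Gabra4 and Gabrb1 share exon sequence on opposite strands, so their counts may be mixed. Of 14 tested genes of GABA receptors and transport 4 rose (28.6%, against 2.45% of all tested genes) and none fell, with a median of 0.30; 6 rose with the block, and 3 to 5 were called on leaving out 1 library.

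**Figure D3:**
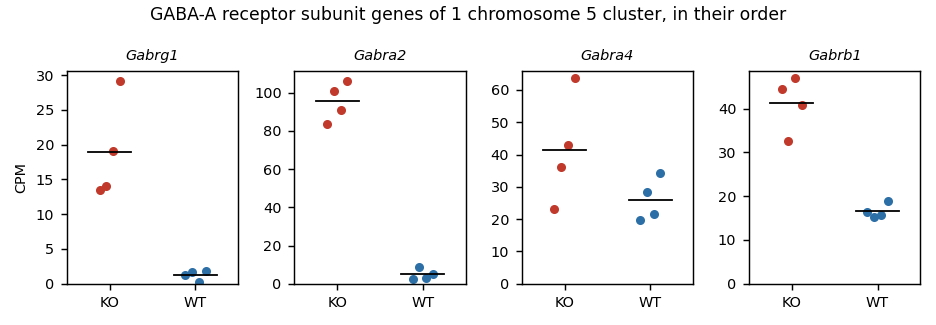
CPM in each KO and WT PAX6+ library (points) and group mean (line) for the 4 GABA-A receptor subunit genes of the chromosome 5 cluster, from left to right in their order on the chromosome. Gabrg1, Gabra2 and Gabrb1 are higher in all 4 KO libraries, while the groups overlap for Gabra4.

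The 250 bases upstream of the annotated starts of Gabra2 and Gabrg1 are shown because these neighbours rose together by similar folds and yet begin in very different sequence. They come from RefSeq on GRCm38.p6, minus strand, at chr5:71095850-71096099 for Gabra2 and chr5:70842618-70842867 for Gabrg1, and capitals mark CG pairs.
Gabra2: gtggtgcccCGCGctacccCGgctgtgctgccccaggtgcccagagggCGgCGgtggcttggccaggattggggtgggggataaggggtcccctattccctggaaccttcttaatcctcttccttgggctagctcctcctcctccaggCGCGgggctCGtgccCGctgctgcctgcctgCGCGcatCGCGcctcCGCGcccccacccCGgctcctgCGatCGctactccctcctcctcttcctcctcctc
Gabrg1: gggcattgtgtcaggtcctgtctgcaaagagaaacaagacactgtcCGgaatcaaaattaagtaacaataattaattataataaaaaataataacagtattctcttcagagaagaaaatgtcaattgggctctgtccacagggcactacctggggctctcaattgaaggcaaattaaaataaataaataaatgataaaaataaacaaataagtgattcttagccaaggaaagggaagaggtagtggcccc
The Gabra2 stretch held 18 CG pairs and 70.0% G and C, and the Gabrg1 stretch held 1 CG pair and 35.6% G and C. These are descriptions of the sequence and not of its use in these cells.

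Genes of other receptors and channels moved in both directions. Of 26 tested genes of glutamate receptors and their auxiliary subunits 6 rose and 2 fell, with a median of 0.01. The share called was 30.8%, against 3.64% of all tested genes. Shares of list members given below in brackets stand against the same 3.64%. Counts with the block, above and below, stand against a larger share: 7.35% of all tested genes were called with it, 4.29% higher and 3.07% lower. Lists were chosen with earlier results of these data known. Shisa9, which encodes an auxiliary subunit of AMPA receptors, had 119, 72.2, 107 and 103 CPM in KO libraries, against 12.6, 12.2, 10.7 and 9.08 CPM in WT libraries. This was a log2 fold change of 3.16 (SE 0.16, adjusted p = 2.685e-08 by edgeR). Shisa6, of the same family, had 6.10 to 12.1 CPM in KO and 1.55 to 3.20 CPM in WT (1.88, SE 0.29), and Gria4, encoding an AMPA receptor subunit, had 28.0 to 42.8 CPM in KO and 18.0 to 20.1 CPM in WT (0.84, SE 0.15). Grin2b, encoding an NMDA receptor subunit, fell instead: it had 5.14, 5.75, 14.3 and 8.77 CPM in KO libraries, against 38.6, 17.9, 63.9 and 24.8 CPM in WT libraries (-2.10, SE 0.36). Of 29 tested potassium channel genes 5 rose and 2 fell (24.1%, median 0.00), with 7 to 8 called on leaving out 1 library. Kcna2 and Kcna6 encode voltage-gated channels of 1 subfamily. Kcna2 had 5.01, 3.99, 12.8 and 4.71 CPM in KO libraries, against 1.32, 0.780, 0.544 and 2.05 CPM in WT libraries (2.56, SE 0.46). Kcna6 had 1.46 to 5.98 CPM in KO and 0 to 0.439 CPM in WT, with an estimate of 4.13 (SE 0.63) that rests on few WT counts. Kcnn2, encoding a calcium-activated potassium channel, had 40.1 to 51.0 CPM in KO and 22.2 to 26.3 CPM in WT (0.91, SE 0.13). Kcnv1, encoding a silent potassium channel subunit, was also in the ranking by fold (2.75, SE 0.47), while Kcnh5 fell (-1.16, SE 0.22). Of 23 tested sodium and calcium channel genes 1 was called (4.35%, near the 3.64% of all tested genes), and with the block 2 were higher and 2 lower. It was Cacna2d1, a calcium channel subunit gene, whose call was lost without KO replicate 1 or 2 or WT replicate 1, 2 or 4 (adjusted p up to 0.1147).

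Genes of a few peptide receptors rose from low WT levels. Cckar, a cholecystokinin receptor gene, had 6.93, 6.92, 4.65 and 4.49 CPM in KO libraries, against 1.32, 0.953, 0.311 and 0.256 CPM in WT libraries (log2 fold change 3.00, SE 0.43). Tacr1, the substance P receptor gene, had 8.99, 8.77, 4.76 and 5.35 CPM in KO libraries, against 2.52, 3.12, 1.55 and 2.05 CPM in WT libraries (1.59, SE 0.31). Prokr2, a prokineticin receptor gene, had 10.5 to 15.7 CPM in KO and 1.17 to 2.94 CPM in WT (2.71, SE 0.27). All 3 were at 3.12 CPM or lower in every WT library. Tacr1, like Cyp26b1, lies within 5 Mb of Emx1. Only 6 of 39 listed neuropeptide and neuropeptide receptor genes had enough counts to test. Of these 2 rose, Cckar and Tacr1, and 1 fell (50.0%). The gene that fell was Adcyap1r1 (-0.40, SE 0.11), whose call was lost on leaving out any 1 library and with limma-voom. Prokr2 is outside the list and was named for its fold.

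Genes of contact with the matrix changed in both directions. Of 15 tested integrin genes 2 rose (13.3%) and none fell, also on leaving out any 1 library. Itga6 encodes the alpha subunit of laminin receptors. It had 444, 385, 434 and 488 CPM in KO libraries, against 116, 126, 124 and 145 CPM in WT libraries, 3.43-fold higher in KO (1.78 on the log2 scale, SE 0.10, adjusted p = 4.015e-08 by edgeR). The lowest KO library was more than 200 CPM above the highest WT library. Itgb5 had 9.12, 7.79, 7.87 and 5.46 CPM in KO libraries, against 2.52, 3.03, 4.12 and 2.05 CPM in WT libraries (1.34, SE 0.27). Itgb1, whose product pairs with that of Itga6, was at 121 ± 15.7 CPM in KO and 115 ± 12.8 CPM in WT (SD, n = 4 each) and was not called (0.08, SE 0.12).

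Of 29 tested genes of matrix and basement membrane other than collagens, 2 rose and 3 fell (17.2%). Lama1, encoding a laminin alpha chain of basement membranes, had 233, 182, 223 and 162 CPM in KO libraries, against 72.2, 86.1, 76.5 and 72.6 CPM in WT libraries (1.38, SE 0.12). Vcan, encoding the proteoglycan versican, had 929, 994, 883 and 1020 CPM in KO libraries, against 497, 545, 398 and 555 CPM in WT libraries (0.94, SE 0.11). Smoc1, encoding a secreted calcium-binding matrix protein, fell to 2.83, 4.58, 7.64 and 3.32 CPM in KO libraries, against 35.3, 19.6, 45.1 and 28.8 CPM in WT libraries (-2.80, SE 0.29, adjusted p = 1.662e-05 by edgeR). For Lama1 and Vcan, all KO libraries were above all WT libraries, and for Smoc1 all were below. Vcan and Smoc1 were named by rankings that required such a lack of overlap. In this list 21 of 29 estimates lay below 0 and the median was -0.23.

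Collagen genes included the largest fall in the ranking by fold. Of 21 tested, 3 fell and 2 rose (23.8%), and 15 estimates lay below 0 (median -0.33). Col22a1, a collagen known from tissue junctions, had 0.257, 0.487, 0.554 and 0.107 CPM in KO libraries, against 7.35, 4.16, 13.1 and 4.99 CPM in WT libraries. Its log2 fold change was -4.34 (SE 0.49, adjusted p = 4.251e-05 by edgeR). Col12a1, which encodes a collagen that associates with fibrils, had 22.6, 19.9, 26.7 and 27.7 CPM in KO libraries, against 136, 107, 221 and 160 CPM in WT libraries (-2.69, SE 0.19). WT replicate 3, the library with the highest Cajal-Retzius markers, was the highest for both genes, and both were called without it; the part of those cells in the difference was not tested. Col1a2, known from fibroblasts of the meninges, had 0.222 to 0.585 CPM in KO and 1.47 to 2.52 CPM in WT (-2.06, SE 0.44); without WT replicate 1 its adjusted p was 0.05794. Summed meninges markers were 12.3 to 19.2 CPM in KO and 14.6 to 18.7 CPM in WT. Col5a1 rose (0.91, SE 0.16), with 29.5 to 50.5 CPM in KO and 19.9 to 24.4 CPM in WT.

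Most genes of cell to cell adhesion were not called, and the called members moved in both directions. Of 29 tested cadherins and protocadherins 4 rose and 1 fell (17.2%), and with the block 6 rose and 3 fell. Cdh20 had 78.6, 60.4, 79.2 and 69.8 CPM in KO libraries, against 23.8, 27.6, 25.8 and 23.4 CPM in WT libraries (log2 fold change 1.51, SE 0.12). Cdh8 had 14.6 to 21.6 CPM in KO and 4.42 to 7.03 CPM in WT (1.64, SE 0.21), and Pcdh8 fell, with 9.16 to 13.3 CPM in KO and 16.2 to 28.0 CPM in WT (-1.03, SE 0.19). Of 29 tested adhesion genes of the immunoglobulin family 7 rose and 2 fell (31.0%), although the median was -0.08. Lsamp, encoding a membrane-anchored adhesion protein, had 55.1, 53.2, 53.6 and 54.0 CPM in KO libraries, against 21.4, 24.1, 21.8 and 21.6 CPM in WT libraries (1.28, SE 0.11). Both groups were tight, and the difference was many times their spread. Dscaml1, encoding a homophilic adhesion protein, fell to 8.73, 6.14, 7.87 and 5.46 CPM in KO libraries, against 34.4, 23.5, 50.5 and 22.5 CPM in WT libraries (-2.23, SE 0.25). Of 27 tested genes of apical junctions and polarity 3 rose and 2 fell (18.5%). Pard3, a core polarity gene at the apical junction, had 171, 190, 179 and 175 CPM in KO libraries, against 134, 131, 119 and 125 CPM in WT libraries (0.49, SE 0.09). Its partner gene Pard6b had 12.1, 14.2, 10.3 and 19.04 CPM in KO libraries, against 27.7, 22.4, 31.7 and 33.5 CPM in WT libraries (-1.05, SE 0.19). These genes of 1 polarity complex were thus called in opposite directions.

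Guidance cues and their receptors also split by gene. Of 28 tested semaphorins, plexins and neuropilins 4 rose and 3 fell (median -0.06), with 6 to 7 called on leaving out 1 library. Sema6d, encoding a transmembrane semaphorin, had 186, 114, 204 and 141 CPM in KO libraries, against 25.4, 30.1, 37.6 and 21.2 CPM in WT libraries (log2 fold change 2.48, SE 0.19). Plxnc1, encoding a semaphorin receptor, had 140, 118, 162 and 169 CPM in KO libraries, against 76.5, 62.4, 88.0 and 77.3 CPM in WT libraries (0.95, SE 0.13). Genes of 3 secreted semaphorins fell, while Sema3b, Sema3d and Sema3e were tested and not called. Sema3f had 6.04, 5.94, 5.43 and 6.31 CPM in KO libraries, against 14.9, 12.8, 15.7 and 12.3 CPM in WT libraries (-1.23, SE 0.18). Sema3c had 0.390 to 0.642 CPM in KO and 1.65 to 5.36 CPM in WT (-2.65, SE 0.44), and Sema3a was called lower as well (-0.53, SE 0.11).

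Of 21 tested genes of Slits, Robos, netrins and Unc5 receptors 4 rose and 1 fell (23.8%), against 6 and 2 with the block. In this list 8 were called without KO replicate 4 and 3 without WT replicate 3. Robo3, a receptor gene known from axons that cross the midline, had 44.6, 32.8, 30.0 and 27.9 CPM in KO libraries, against 3.40, 7.97, 2.41 and 3.32 CPM in WT libraries (2.96, SE 0.29, adjusted p = 7.632e-06 by edgeR). Dcc, the netrin receptor gene, had 106, 96.6, 112 and 87.4 CPM in KO libraries, against 70.3, 65.5, 60.3 and 75.4 CPM in WT libraries (0.57, SE 0.11). Rgma, whose product binds the Dcc-related receptor neogenin, had 321 to 533 CPM in KO and 194 to 270 CPM in WT (0.88, SE 0.14). Among Eph receptors and ephrins 2 of 18 tested were called (11.1%), both higher. Epha3 had 43.5, 33.9, 40.4 and 30.2 CPM in KO libraries, against 9.54, 12.5, 15.1 and 8.44 CPM in WT libraries (1.68, SE 0.19). Ephb1 was 1.55-fold higher. The calls of Ephb1 and Dcc were lost when all 24 libraries were fitted together.

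**Figure D4:**
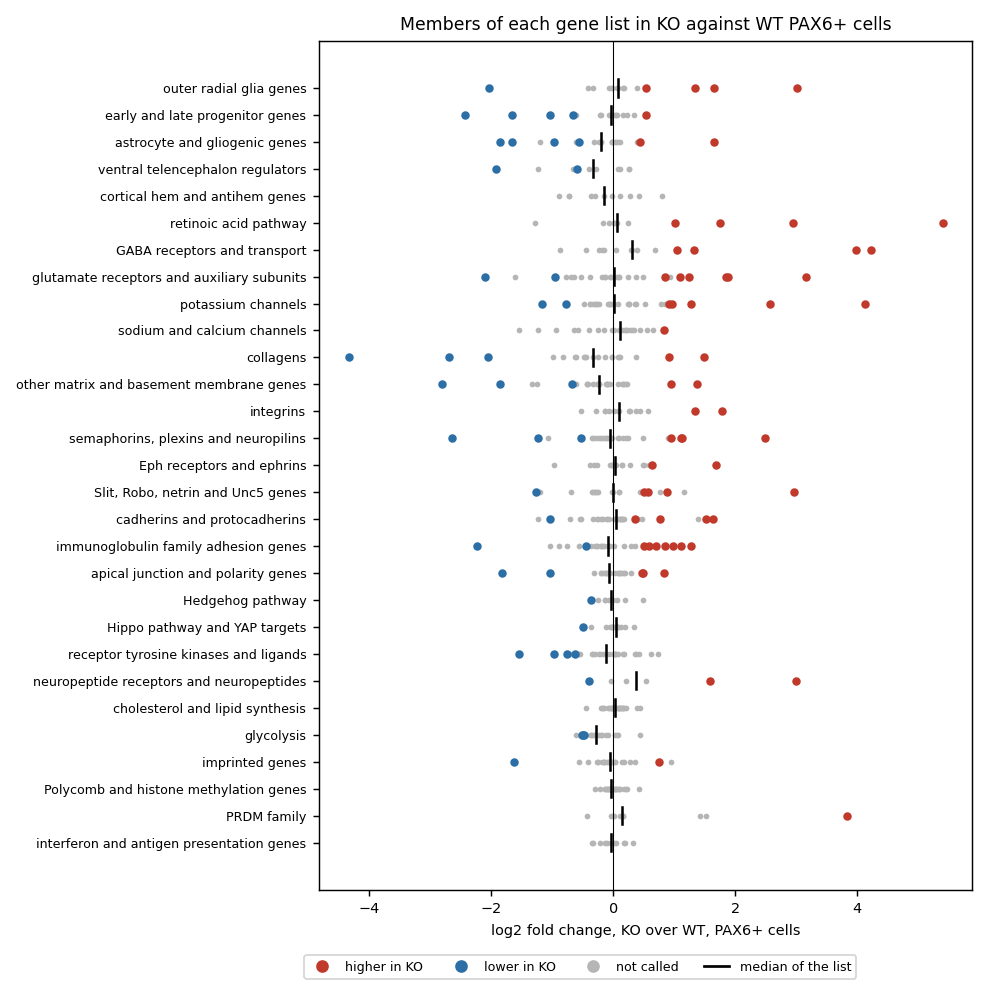
Each row is a gene list and each point a tested member at its log2 fold change of KO over WT in PAX6+ cells, red where it rose, blue where it fell and grey where it was not called; black bars are list medians. Medians lie between -0.34 and 0.37, and Col22a1 at -4.34 and Cyp26b1 at 5.40 are the outermost members.

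Marker genes of radial glia itself changed little. Of 12 tested 1 was called (8.33%), Slc1a3, the glutamate transporter gene of glia, and the range of estimates was -0.19 to 0.43. Slc1a3 had 619, 484, 481 and 588 CPM in KO libraries, against 385, 352, 439 and 433 CPM in WT libraries (log2 fold change 0.43, SE 0.11). Its call was lost without KO replicate 1 or 4 or WT replicate 1, 2 or 3 (adjusted p up to 0.1476 by edgeR). It was also lost with all 24 libraries in 1 fit. With the block 4 of the 12 were called, all higher, against 4.29% of all tested genes called higher with the block. Pax6, the gene of the sorted protein, had 484, 567, 574 and 503 CPM in KO libraries, against 548, 575, 558 and 498 CPM in WT libraries (-0.03, SE 0.09). Of 9 tested intermediate progenitor markers 2 fell (22.2%) and 7 were not called. Eomes, which encodes TBR2, had 50.1, 75.9, 62.8 and 44.5 CPM in KO libraries, against 76.8, 98.9, 135 and 77.7 CPM in WT libraries (-0.74, SE 0.19, adjusted p = 0.0358 by edgeR). The call was lost without KO replicate 1, 3 or 4 or WT replicate 2 or 3, where the adjusted p reached 0.1651. It was also lost with all 24 libraries in 1 fit. Insm1 (-0.52, SE 0.12) was lost without KO replicate 3 or WT replicate 2 or 3, where the adjusted p reached 0.08893. Without WT replicate 3 neither was called. With the block both were called lower by edgeR, at an adjusted p of 0.0001632 for Eomes and 0.001802 for Insm1.

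Genes linked in human cortex to outer radial glia, the progenitors that have left the ventricle, were called in 5 of 15 tested (33.3%), 4 higher and 1 lower. Lifr, encoding a receptor of the LIF and STAT3 pathway, had 97.0, 85.0, 99.5 and 91.6 CPM in KO libraries, against 28.8, 34.4, 23.5 and 31.8 CPM in WT libraries (1.66, SE 0.13, adjusted p = 6.916e-07 by edgeR). Moxd1, encoding a monooxygenase-like protein, had 6.42, 4.19, 7.53 and 5.56 CPM in KO libraries, against 1.21, 0.953, 0.544 and 0.128 CPM in WT libraries (3.01, SE 0.42). Ednrb, an endothelin receptor gene, rose by a smaller step (0.54, SE 0.10; not called with all 24 libraries in 1 fit), and Itgb5 is the fourth. The member that fell was Slco1c1, a thyroid hormone transporter gene also known from brain endothelium. It had 2.44, 0.682, 3.88 and 2.35 CPM in KO libraries, against 7.02, 2.60, 18.9 and 9.21 CPM in WT libraries (-2.03, SE 0.51). The groups overlapped, and the call was lost without KO replicate 1 or 2 or WT replicate 3 or 4 (adjusted p up to 0.2158) and with DESeq2 or limma-voom. Summed endothelial and mural markers were lower in KO too, as given above, and their part in this value was not tested. Hopx and Tnc, often used as outer radial glia markers, were not called.

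Of 19 tested early and late progenitor genes 1 rose and 4 fell (26.3%), and 14 were not called (median -0.04). On leaving out 1 library 2 to 4 were called. Sall4, a zinc finger gene of early progenitors, had 1.03, 3.12, 0.886 and 0.642 CPM in KO libraries, against 9.65, 8.92, 5.83 and 7.16 CPM in WT libraries (-2.43, SE 0.39, adjusted p = 0.001334 by edgeR). Hmga2, a chromatin gene of young neural stem cells, had 35.8, 43.9, 26.2 and 34.5 CPM in KO libraries, against 63.4, 62.5, 48.6 and 49.1 CPM in WT libraries (-0.67, SE 0.15). Its call was lost without KO replicate 3 or WT replicate 1 or 2 (adjusted p up to 0.08758 by edgeR). It was also lost with all 24 libraries in 1 fit. Of 23 tested astrocyte and gliogenic genes 2 rose and 4 fell (26.1%, median -0.20), and with the block 4 rose and 6 fell. Mfge8, a secreted protein gene of neural stem cells and astrocytes, had 61.9, 52.6, 64.5 and 55.7 CPM in KO libraries, against 114, 86.5, 152 and 106 CPM in WT libraries (-0.97, SE 0.15). Early genes and glial genes were thus both among those that fell. Meis1, a homeobox gene of the ventral regulator list, had 6.04, 5.84, 2.66 and 6.31 CPM in KO libraries, against 25.2, 16.2, 23.3 and 14.7 CPM in WT libraries (-1.93, SE 0.26). Without the block, no gene of the cortical hem and antihem list was called by edgeR among 11 tested, where 4 had an unadjusted p under 0.05, DESeq2 called 3 and limma-voom called 0; with the block edgeR called 1 higher and 2 lower.

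Of 14 tested excitatory neuron markers 2 were called (14.3%, against 3.64% of all tested genes): Nrp1, a semaphorin receptor gene, rose and Dcx, a microtubule gene of migrating neurons, fell. DESeq2 called 3 of these markers. Dcx had 38.0, 41.9, 32.5 and 29.6 CPM in KO libraries, against 106, 43.8, 66.0 and 69.9 CPM in WT libraries (log2 fold change -1.01, SE 0.21). Nrp1 had 9.89, 11.98, 16.4 and 11.3 CPM in KO libraries, against 6.47, 4.76, 6.92 and 4.86 CPM in WT libraries (1.10, SE 0.22). The summed level of these markers was 295 to 396 CPM in KO and 338 to 432 CPM in WT. Cajal-Retzius markers gave 6 testable genes, all with estimates below 0 and none called by edgeR; 3 had an unadjusted p under 0.05, neither DESeq2 nor limma-voom called any, and with the block 4 were called lower.

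Calls in signalling and metabolic lists were as follows. Of 28 tested receptor tyrosine kinase and ligand genes 4 fell (14.3%, against 3.64% of all tested genes called) and none rose. With the block 3 rose and 6 fell. Alk, a receptor gene, had 3.60, 4.77, 4.54 and 2.57 CPM in KO libraries, against 14.1, 11.1, 11.3 and 8.95 CPM in WT libraries (-1.55, SE 0.24). Ntrk2, encoding the BDNF receptor, had 61.6, 61.1, 52.6 and 50.4 CPM in KO libraries, against 99.7, 72.8, 128 and 79.7 CPM in WT libraries (-0.75, SE 0.16). Fgf15, a growth factor gene outside this list, rose, with 5.65, 4.77, 6.54 and 4.17 CPM in KO libraries, against 1.65, 0.780, 0.311 and 0.128 CPM in WT libraries (2.87, SE 0.47). Hedgehog genes were called in 1 of 11 tested (9.09%), Gli3, which encodes a transcription factor of the pathway (-0.37, SE 0.09). That call was lost without KO replicate 2, 3 or 4 or WT replicate 1, 2 or 3 (adjusted p up to 0.1748 by edgeR). It was also lost with all 24 libraries in 1 fit. Hippo pathway genes were called in 1 of 19 (5.26%, near the 3.64% of all tested genes), the YAP relative Wwtr1 (-0.50, SE 0.11). This call was lost without KO replicate 2 (adjusted p = 0.0581 by edgeR) and with all 24 libraries in 1 fit. Of 19 tested glycolysis genes 15 had estimates below 0 (median -0.29) and 3 were called lower (15.8%), Aldoa, Ldha and Tpi1. The count of this list was 0 to 3 on leaving out 1 library, 1 without WT replicate 3, and 1 higher and 7 lower with the block. Among 28 genes of cholesterol and lipid synthesis, 29 Polycomb and histone methylation genes and 11 interferon and antigen presentation genes, edgeR called none, none had an unadjusted p under 0.05, and neither DESeq2 nor limma-voom called any. Estimates in these 3 lists stayed between -0.45 and 0.45. Imprinted genes were called in 2 of 23 tested (8.70%), H19 lower (-1.63, SE 0.31) and Rian higher (0.75, SE 0.16). The call of Rian was lost without KO replicate 2 or WT replicate 3 (adjusted p up to 0.06042 by edgeR).

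Judged by the change in CPM rather than by fold, abundant genes came first. Trim2, a ubiquitin ligase gene, had 1271, 1276, 1376 and 1526 CPM in KO libraries, against 759, 781, 809 and 874 CPM in WT libraries (log2 fold change 0.76, SE 0.09). Zfp704, a zinc finger gene, had 466, 433, 482 and 552 CPM in KO libraries, against 200, 199, 196 and 212 CPM in WT libraries (1.26, SE 0.10). Zfp462, Srgap3 and Frmd4a rose by 1.398-, 1.35- and 1.75-fold. The falls of abundant genes were smaller. Pea15a, an adaptor gene of astrocytes and progenitors, had 409, 384, 417 and 394 CPM in KO libraries, against 580, 489, 597 and 520 CPM in WT libraries (-0.45, SE 0.09; adjusted p = 0.05025 without KO replicate 2). Igfbp5, encoding a binding protein of insulin-like growth factors, had 92.3, 96.5, 83.0 and 69.2 CPM in KO libraries, against 167, 138, 222 and 158 CPM in WT libraries (-1.004, SE 0.14). Other genes ranked by fold included Pid1 (2.56), Diras2 (2.61), Palmd (-2.28), Eva1c (-2.17) and Tox (-1.98). Every KO library was on 1 side of the WT libraries for them, because the ranking required it.

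Properties of the genes differed between the called sets and all tested genes. These are descriptions over genes, which are not independent, and carry no test. Protein-coding genes that rose had a median span of 110 kb and those that fell 59.9 kb, against 25.8 kb over all tested. Of the genes that rose 6.90% had a WT mean under 1 CPM, against 1.32% of all tested, and of those that fell 10.1% had a KO mean under 1 CPM, against 1.09%; these means enter the call itself. Called genes also lay beside each other. Of genes that rose 24.4% had a neighbour among tested genes that rose too, against 4.68% of all tested genes; leaving out neighbours with overlapping spans, which may share reads, the shares were 15.52% and 4.00%. Of genes that fell 8.28% had a neighbour that fell, against 2.36% of all tested, and 5.92% against 2.10% without overlapping spans. Among the 60 adjacent pairs of called genes 53 changed in the same direction, 20 with overlapping spans and 33 without. The urea transporter genes Slc14a1 and Slc14a2, which are 4.03 kb apart, were an exception: Slc14a2 had 6.55, 5.75, 6.76 and 4.6 CPM in KO libraries, against 43.2, 28.9, 35.0 and 28.9 CPM in WT libraries (log2 fold change -2.52, SE 0.19), while Slc14a1 had 36.6, 16.9, 19.2 and 27.3 CPM in KO libraries, against 16.9, 9.44, 14.5 and 12.3 CPM in WT libraries (0.91, SE 0.23). The pair was chosen after its values were seen.

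The genes that rose in KO radial glia were often ones with higher levels in PAX6-TBR2- cells. In WT libraries of the other populations, 54.9% of the 306 risen genes that could be tested were called higher in PAX6-TBR2- cells than in TBR2+ cells and 24.8% the other way, against 23.8% and 23.98% of all 12276 genes tested in both fits. Of the 140 testable genes that fell, 32.9% were called higher in PAX6-TBR2- cells and 38.6% in TBR2+ cells. Each population has its own library prefix in the table, so preparation and population cannot be told apart in this comparison.

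How far the changes extended beyond PAX6+ cells was asked in the other populations. KO against WT gave 223 calls among 12687 genes (1.76%; 139 higher, 1.1%, and 84 lower, 0.662%) in TBR2+ cells and 1 among 12928 (0.00774%) in PAX6-TBR2- cells, where 854 genes had an unadjusted p under 0.05. A share of about 0.05 of the tested genes would pass that threshold without any effect, so the 854 do not count changed genes. Of the genes that rose in PAX6+ cells 46 also rose in TBR2+ cells, which is 13.2% of the PAX6+ list and 33.1% of the TBR2+ list. Of those that fell 20 were shared, 11.8% of the PAX6+ list and 23.8% of the TBR2+ list, and Zfhx4, Chst2 and Pdgfc were called in opposite directions. Only 307 of the 348 risen genes and 129 of the 169 fallen genes could be tested in TBR2+ cells. The shares of the PAX6+ lists count the untested genes as not shared, so they are low. Whether the effect itself differed was tested as an interaction over 16 libraries at a time. Against TBR2+ cells 89 of 14548 genes (0.612%) differed, 58 of them with the higher value in PAX6+ cells (0.399%) and 31 with the lower (0.213%), and against PAX6-TBR2- cells 117 of 15102 (0.775%), 87 of them higher (0.576%) and 30 lower (0.199%). With a replicate block these counts were 323 and 332. Among the PAX6+ calls tested there, 70 and 108 of 515 differed. Whether libraries with the same number in different populations share embryos is not stated; KO replicate 4 was low in Xist in all 3 populations, and the interaction test treats the libraries as independent.

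Cyp26b1, Gabra2 and Shisa9 rose more in PAX6+ cells than in either other population. For Cyp26b1, CPM scaled over all 24 libraries averaged 15.1 ± 3.00 in KO and 0.346 ± 0.224 in WT PAX6+ cells (SD, n = 4 each), and 3.77 ± 1.21 in KO and 2.35 ± 2.20 in WT TBR2+ cells. The difference of the log2 fold changes was 4.72 (SE 0.69, adjusted p = 0.0006462 by edgeR), and it was 4.24 (SE 0.70, adjusted p = 0.002708) against PAX6-TBR2- cells. For Shisa9 the differences were 3.57 (SE 0.37) and 3.01 (SE 0.39). Gabra2 was called higher in TBR2+ cells too, by 1.75 (SE 0.17), but less than in PAX6+ cells, with a difference of 2.48 (SE 0.34, adjusted p = 0.0003046 by edgeR). The mean level of Gabra2 in WT went up along the lineage, from 4.01 CPM in PAX6+ cells over 14.0 CPM in TBR2+ cells to 23.3 CPM in PAX6-TBR2- cells, and KO PAX6+ cells, at 75.8 CPM, were above all 3; levels across populations were not tested.

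Among genes that fell, Col12a1 and Col22a1 fell more in PAX6+ than in TBR2+ cells. Col12a1 averaged 19.3 ± 2.93 CPM in KO and 125 ± 40.03 CPM in WT PAX6+ cells, and 5.63 ± 1.14 CPM in KO and 6.50 ± 1.90 CPM in WT TBR2+ cells, with a difference of -2.47 (SE 0.33). Col22a1 differed by -4.18 (SE 0.67, adjusted p = 0.001584 by edgeR). Its counts were too low for a separate test of KO against WT in either other population. It averaged 1.64 CPM in KO and 1.79 CPM in WT TBR2+ cells, and 0.122 and 0.332 CPM in PAX6-TBR2- cells. Against PAX6-TBR2- cells neither difference was called, at -0.99 for Col12a1 (adjusted p = 0.6946) and -2.56 for Col22a1 (adjusted p = 0.8296). For Smoc1 no difference was called: it was called lower in TBR2+ cells as well, by -3.49 (SE 0.38), and the difference was 0.69 (SE 0.56, adjusted p = 0.9595). Gabrg1 was likewise called higher in TBR2+ cells (2.11, SE 0.37), and its difference of 1.85 (SE 0.62) was not called (adjusted p = 0.299 by edgeR). In PAX6-TBR2- cells the counts of Gabrg1 were too low for a test of KO against WT. For Mecom, Moxd1, Ankfn1, Minar1 and Slc14a2 counts in the other populations were too low for a test there, and their interactions were not called (adjusted p of 0.5092 to 0.9999).

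**Figure D5:**
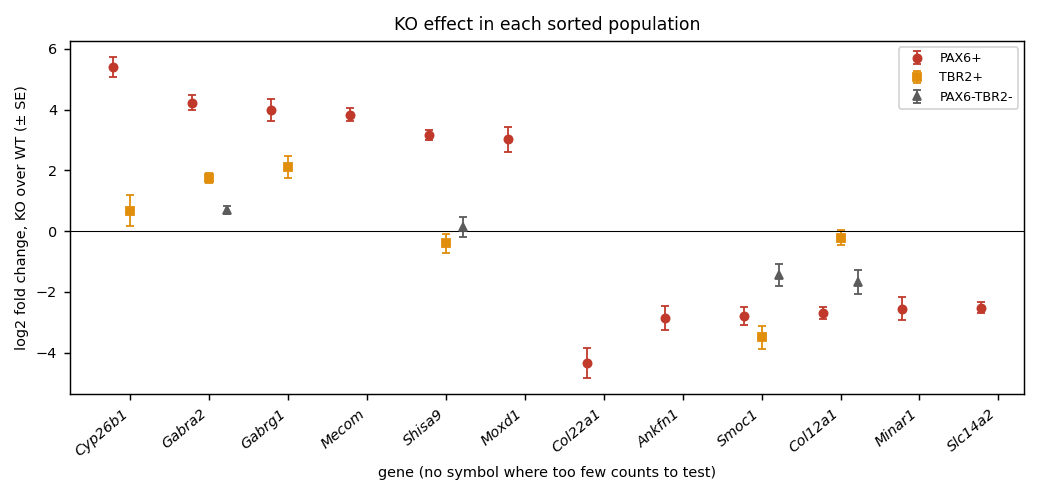
Log2 fold change of KO over WT with its SE in PAX6+ (circles), TBR2+ (squares) and PAX6-TBR2- cells (triangles) for the 12 genes heading the ranking by fold; no symbol is drawn where counts were too low to test. Shisa9 lies at 3.16 in PAX6+ cells and at -0.40 and 0.13 in the others, while Smoc1 lies below 0 in all 3.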

How the data were processed

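Per the labels, total RNA of cells sorted from E15.5 cortex was extracted with a RecoverAll kit, amplified with Ovation RNA-seq V2 and made into libraries. Per the submitters' processing notes, FastQC, cutadapt, STAR, featureCounts and DESeq2 were used with build mm10; their versions, the annotation release and the strandedness of counting are not stated in the labels or notes. The deposited counts per gene are whole numbers made by the authors from each of 2 lanes, and lanes were summed here per library. Gene positions came from GENCODE M21 on GRCm38, which matched 37693 of 39017 IDs.

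KO and WT PAX6+ libraries were compared by the quasi-likelihood F test of edgeR 4.0.16 (R 4.3.3; TMM, low genes removed by filterByExpr, Benjamini-Hochberg adjustment, threshold 0.05), fitted on the 8 PAX6+ libraries. CPM are TMM-scaled, and SE is the log2 fold change divided by the square root of F. Interactions were fitted over 16 libraries. Alternatives were DESeq2 1.42.0, limma-voom 3.58.1, DESeq2 size factors, no filter, at least 10 counts in 4 libraries, all 24 libraries in 1 fit, a replicate block and each library left out. Same-numbered KO and WT libraries deviated together from their group means (r of 0.183 to 0.438 over 4 pairs, against -0.256 to 0.133 for other pairs), so the numbers were taken to pair them. Lanes differed by sampling noise (chi-square per degree of freedom 0.977 to 1.02), and libraries of 1 group by far more (8.04 to 45.5).

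The text names the 15 called genes per direction with the largest fold (groups not overlapping, mean of at least 5 CPM in the higher group), the 10 with the largest CPM difference, up to 4 called members per list, Prdm16, Emx1, Pax6 and Eomes, and called genes within 5 Mb of Emx1 or Prdm16; members not called were named to complete a list. Members and lists were chosen with earlier results of these data known. On simulated counts for 14030 genes in PAX6+ libraries, edgeR called 50 of 50 genes made 4-fold higher, 39 of 50 made 2-fold higher and 10 of 13836 unchanged genes. Some called list members are not reported here.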

Additional observations from a re-analysis of the deposited data

Results flagged for a closer look

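In 260 sets of 4 libraries examined, 15 had 1 library far from the other 3 by Dixon's criterion; chance alone gives about 1 in 20. The summed Cajal-Retzius markers were 424.5 CPM in WT replicate 3, against 52.9 to 77.9 CPM in the other WT libraries. KO replicate 3 stood apart for Kcna2 (12.85 CPM), Palmd (11.74 CPM), Aqp4 (1.772 CPM), Meis1 (2.659 CPM), Ctnna2 (44.31 CPM) and Ddr2 (5.207 CPM). KO replicate 2 stood apart for Diras2 (39.94 CPM), Sall4 (3.117 CPM) and Rian (23.09 CPM), and KO replicate 4 for Ankrd6 (132.4 CPM) and Emx1 (14.44 CPM). Among WT libraries, replicate 3 stood apart for Cacna2d1 (39.55 CPM), replicate 2 for Lsamp (24.09 CPM) and replicate 4 for Ldha (257.4 CPM).

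The effect of the KO differed between populations by the interaction test of edgeR for 5 of the 12 genes examined. The log2 difference was 4.717 for Cyp26b1, 2.481 for Gabra2, 3.566 for Shisa9, -4.184 for Col22a1 and -2.471 for Col12a1 in PAX6+ minus TBR2+ cells. In PAX6+ minus PAX6-TBR2- cells it was 4.242 for Cyp26b1, 3.54 for Gabra2 and 3.005 for Shisa9.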

How the results depend on the processing

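The count of 517 called genes was 499 to 708 under the other tools, scalings and filters and 1045 with the replicate block, where 609 were higher and 436 lower. The 169 lower genes became 278 without a filter. Leaving out 1 library gave 358 to 529 called genes, 261 to 362 higher and 95 to 167 lower. The 89 interactions with TBR2+ cells became 329 without a filter and 323 with the block, and 71 to 92 on leaving out 1 library. The 117 with PAX6-TBR2- cells became 219, 332 and 90 to 104. The causes were not tested. Of 113 named genes that were called, 82 kept the call whichever library was left out and 31 lost it in at least 1 such fit. With the replicate block all 113 kept it. Of the 116 genes named by rule, 12 lost the call with all 24 libraries in 1 fit, 4 with limma-voom and 2 with DESeq2. Among genes named by rule, Prdm16 alone gained a call, with the block, no filter, DESeq2 or limma-voom. Pax6, not called, changed sign without KO replicate 1 (0.007995) and without WT replicate 2 (0.002166), over a range of -0.07582 to 0.007995 on leaving out 1 library. Genes at a few CPM are limited by 7620760 to 12554161 counts per library.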
